A study of Mus musculus with 16 samples.

Results

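The 10 genes of the p38 MAPK pathway followed here were measured by RNA-seq and ATAC-seq in Nrp1 high and Nrp1 low monocytes from neonatal mouse spleen. They are the p38 kinases Mapk14 and Mapk13, the upstream kinases Map3k5, Map2k3 and Map2k6, the effector kinases Mapkapk2, Mapkapk3 and Mapkapk5, and Dusp1 and Zfp36. They were chosen by symbol, 10 of the 25562 genes of the RNA count table, and by Ensembl identifier in the ATAC table, where 47 of 40796 regions were assigned to them. All 10 genes passed the filter on low counts.

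The cells came from wild-type C57BL/6 or C57BL/6J mice aged 7 days and were sorted by surface Nrp1 (neuropilin-1, which binds semaphorins and VEGF). Both fractions carry the label of myeloid-derived suppressor cells, and the protocol calls them monocytes. RNA was measured in 3 Nrp1 high and 3 Nrp1 low libraries of 80000 cells, and open chromatin (ATAC-seq, in which a transposase cuts accessible DNA) in 5 Nrp1 high and 5 Nrp1 low libraries of 50000 cells. No agent or mutation separates the groups. The labels speak of pooled RNA and name no animal behind a library. The p-values therefore rest on the spread among these libraries, some or all of which may be technical.

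Stress and inflammatory signals activate p38 kinases through a relay. A MAP3K such as ASK1, the product of Map3k5, phosphorylates the kinases MKK3 and MKK6, which in turn phosphorylate p38. In macrophages p38 alpha activates MK2 and MK3, which phosphorylate tristetraprolin, the product of Zfp36, and so slow the decay of AU-rich mRNAs such as that of Tnf. The phosphatase DUSP1 switches p38 off again. RNA-seq and ATAC-seq measure neither the phosphorylation nor the activity of these proteins.

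RNA totals lay between 28440098 and 31428419 counts in Nrp1 high and between 23395363 and 35127433 in Nrp1 low. A gene was called where edgeR's quasi-likelihood test, run across the whole table, gave a Benjamini-Hochberg adjusted p under 0.05. Levels are CPM, counts scaled to 1 common library size by TMM, and are not per transcript length. Nrp1 averaged 99.5 ± 11 CPM in Nrp1 high, against 39.8 ± 18.9 CPM in Nrp1 low (SD, n = 3 each). All Nrp1 high libraries lay above all Nrp1 low libraries, but edgeR did not call Nrp1 (adjusted p = 0.259), whereas DESeq2 did (adjusted p = 0.0187). Nrp1 low replicate 1 stood apart, at 89.5 on the first principal component of log2(CPM + 1), against -50.26 to 19.48 for the other 5 libraries. The monocyte genes Csf1r and Ly6c2 averaged 482.3 and 2018 CPM in Nrp1 high, against 420.1 and 2069 CPM in Nrp1 low. Of 15 classical monocyte markers edgeR called 0, and 4 (26.7%) had an unadjusted p under 0.05, against 11.2% of all tested genes. DESeq2 called 1 of the 15, Cd14, a co-receptor for lipopolysaccharide (log2 difference -1.33). Groups did not overlap for 4 of the 15 (26.7%), against 20.3% of all tested genes. Of these Cd14 lay below in Nrp1 high, and the chemokine receptor gene Ccr2 (0.81), F13a1 (0.77) and Fcgr1 (0.42) above. All 20 neutrophil markers lay below 0 on the log2 scale, and edgeR called 14 of them lower in Nrp1 high and DESeq2 17.

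**Figure D1:**
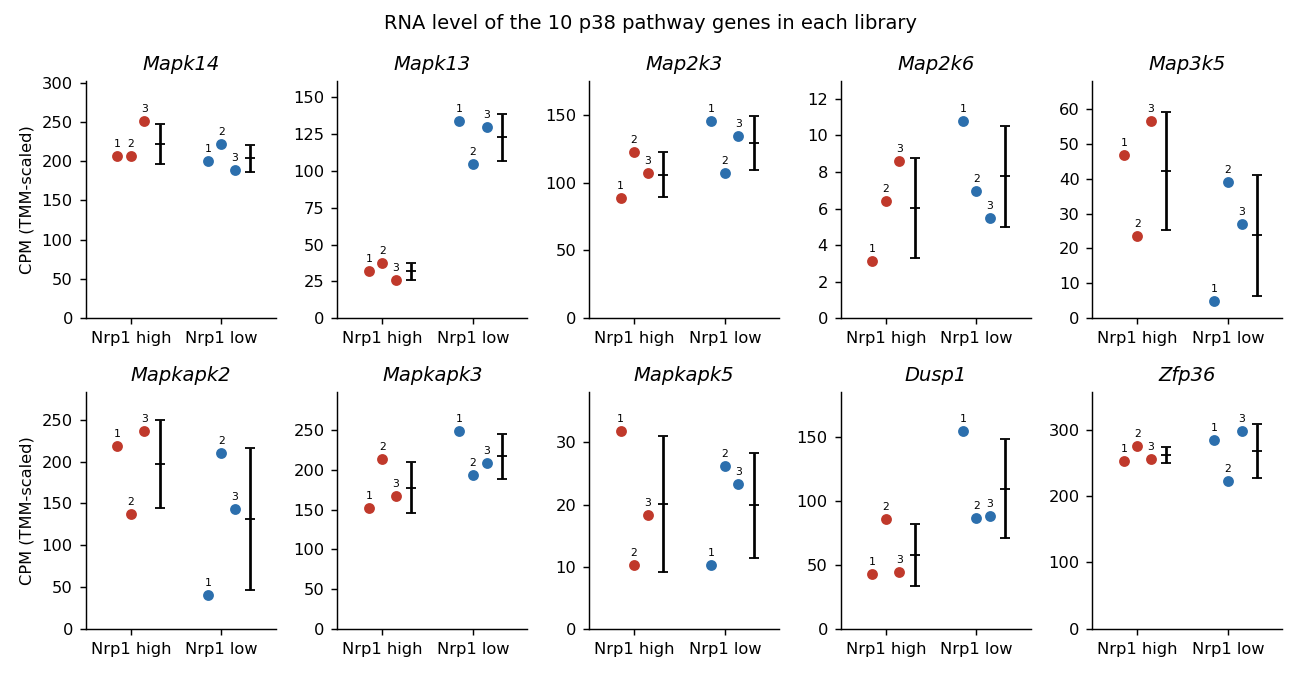
RNA level in CPM (TMM-scaled) of the 10 genes, each point 1 library labelled with its replicate number, Nrp1 high in red and Nrp1 low in blue; black bars are the mean ± SD of 3 libraries. Mapk13 sits between 26.1 and 37.6 CPM in Nrp1 high and between 104.5 and 134.2 CPM in Nrp1 low, while 8 of the 10 genes have groups that overlap. The share of the 10 without overlap, 20.0%, is near the 20.3% of all tested genes.

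Mapk13, the gene of p38 delta, was lower in Nrp1 high monocytes, and it was the only 1 of the 10 genes called. Of all 15541 tested genes 0.682% were called, 0.676% as lower in Nrp1 high and 0.00643%, a single gene, as higher. DESeq2 called 1.54% of the genes to which it gave a p-value, and limma-voom 0.772% of those it tested, Mapk13 among them in both. The base of the DESeq2 share includes genes that its own filter may leave without an adjusted p. Mapk13 (ENSMUSG00000004864, chromosome 17, 28769286 to 28778704, plus strand; positions of genes are RefSeq's on GRCm38.p6) held 31.7, 37.6 and 26.1 CPM in Nrp1 high, against 134.2, 104.5 and 129.5 CPM in Nrp1 low. All 3 Nrp1 high libraries lay below all 3 Nrp1 low libraries, which was so for 10.8% of the tested genes, with the reverse in 9.51%. The mean was 31.8 ± 5.72 CPM in Nrp1 high, against 122.7 ± 16.0 CPM in Nrp1 low (SD, n = 3 each), 3.86-fold lower. On the log2 scale the difference, Nrp1 high minus Nrp1 low, was -1.95 ± 0.22 (SE), with a 95% interval of -2.45 to -1.44 and an adjusted p of 0.00825 (edgeR).

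The size of the Mapk13 difference held when each library was left out in turn, with log2 values between -2.07 and -1.82, but the call did not. The adjusted p (edgeR) was 0.0719 without Nrp1 high replicate 1, 0.0888 without Nrp1 high replicate 3 and 0.0738 without Nrp1 low replicate 3. Without Nrp1 low replicate 1, the library that stood apart, the log2 difference was -1.88 and the adjusted p 0.00416.

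Neutrophil markers moved with Mapk13. The summed level of the 20 neutrophil markers ran from 9677 to 12370 CPM in Nrp1 high and from 53590 to 86400 CPM in Nrp1 low, and none of the 20 was at 0 in all libraries. Their median log2 difference was -2.44, against 0.01 for all tested genes. Platelet markers summed to 9.43 to 16.0 CPM in Nrp1 high, against 55.5 to 67.5 CPM in Nrp1 low, with 3 of 7 called lower by edgeR and 4 by DESeq2. Macrophage markers summed to 275.3 to 326.2 CPM in Nrp1 high, against 496.3 to 589.9 CPM in Nrp1 low, with 0 of 10 called by edgeR (7 at an unadjusted p under 0.05). DESeq2 called 4 of the 10, Vcam1, Slc40a1, C1qb and C1qc, all lower in Nrp1 high. NK cell markers summed to 50.7 to 78.7 CPM in Nrp1 high, against 160.5 to 218.1 CPM in Nrp1 low. In that list edgeR called 1 of 7, and DESeq2 the same gene, Nkg7, a granule membrane protein of cytotoxic lymphocytes. Nkg7 made up most of each sum, at 40.0 to 62.1 CPM in Nrp1 high and 139.2 to 193.3 CPM in Nrp1 low. Of the 7, 5 lay below 0 on the log2 scale, and Klrd1 (0.56) and Eomes (0.16) above. In each of these 4 lists all Nrp1 high sums lay below all Nrp1 low sums. For B cell, T cell, erythroid and dendritic cell markers the sums overlapped between the groups, with 0 called by edgeR or DESeq2. In these lists 5 of 8, 2 of 8, 1 of 9 and 7 of 8 markers lay above 0. An unadjusted p under 0.05 (edgeR) was found for 12.5%, 0%, 11.1% and 37.5% of them, against 11.2% of all tested genes. Groups did not overlap for 37.5%, 0%, 22.2% and 25.0%, against 20.3% of all tested genes. The dendritic cell sum was mostly H2-Ab1, the 1 marker of that list below 0. H2-Ab1 held 89.0 to 166.5 CPM in Nrp1 high and 108.6 to 204.9 CPM in Nrp1 low. The part of any of these cell types in the Mapk13 difference was not tested. In sorted bulk samples, fewer cells of a type and less RNA per cell cannot be told apart.

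The genes whose pattern over the 6 libraries was most like that of Mapk13 included granule genes. Likeness was the root-mean-square difference of mean-centred log2(CPM + 1), among 8645 other genes with a mean of at least 10 CPM. Nkg7 came first (0.09), followed by Prss57, a serine protease of azurophil granules (0.12), Adgrg3, an adhesion G protein-coupled receptor (0.12), Il1r2, the decoy receptor for interleukin-1 (0.13), and Elane, neutrophil elastase (0.14). Their log2 differences lay between -2.10 and -1.80, and all 5 were called. Both largely follow from the choice of these genes, since likeness took in the difference between the groups. Elane was also in the neutrophil list and Nkg7 in the NK cell list.

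Mapk14, the gene of p38 alpha, did not pass the test. Mapk14 (chromosome 17, 28691342 to 28748405, plus strand) held 207.3, 206.9 and 251.9 CPM in Nrp1 high, against 200.05, 221.8 and 189.0 CPM in Nrp1 low, and the groups overlapped. Its log2 difference was 0.12 ± 0.18 (SE; adjusted p = 0.743, edgeR), and the 95% interval ran from -0.29 to 0.54. The ratio of Mapk13 to Mapk14 CPM was 0.153, 0.181 and 0.104 in Nrp1 high, against 0.671, 0.471 and 0.685 in Nrp1 low. These ratios are not per transcript length, so they compare libraries and not the 2 kinases with each other. Mapk11, the gene of p38 beta, was at low levels, 0.51, 1.83 and 1.72 CPM in Nrp1 high, against 0.19, 0.50 and 1.96 CPM in Nrp1 low. Mapk12, the gene of p38 gamma, was not analysed here. In the RefSeq annotation the pseudogenes Gm4356 and Gm25549 lie within Mapk14 and Mapkapk2, and a lncRNA gene, Gm39446, within Map2k6. Reads there could be shared between the genes, and whether the counting used strand is unknown here.

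The 3 upstream kinases did not pass the test. Map2k3, the gene of MKK3 (chromosome 11, 60932054 to 60952811, plus strand), held 88.6, 122.3 and 107.3 CPM in Nrp1 high, against 145.9, 107.1 and 134.2 CPM in Nrp1 low. The Map2k3 groups overlapped, with a log2 difference of -0.28 ± 0.21 (SE; adjusted p = 0.537, edgeR) and a 95% interval of -0.76 to 0.20. Map2k6, the gene of MKK6 (chromosome 11, 110399102 to 110525522, plus strand), held 3.12, 6.39 and 8.59 CPM in Nrp1 high, against 10.8, 6.97 and 5.49 CPM in Nrp1 low. The highest Map2k6 library was Nrp1 low and the lowest Nrp1 high, with the other 4 between 5.49 and 8.59 CPM (log2 difference -0.36 ± 0.45 SE, adjusted p = 0.702, edgeR). The difference was -0.049 without Nrp1 low replicate 1, -0.053 without Nrp1 high replicate 1 and -0.71 without Nrp1 high replicate 3. The ratio of Map2k6 to Map2k3 CPM averaged 0.0558 ± 0.0226 in Nrp1 high and 0.0600 ± 0.0171 in Nrp1 low (SD, n = 3 each).

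Map3k5 (chromosome 10, 19934101 to 20142750, plus strand) held 46.7, 23.7 and 56.7 CPM in Nrp1 high, against 4.93, 39.2 and 27.1 CPM in Nrp1 low. Nrp1 low replicate 1 was the lowest of the 6, and the other 5 libraries overlapped between the groups. The log2 difference was 0.84 ± 0.65 (SE; adjusted p = 0.553, edgeR), and 0.35 without that library (adjusted p = 0.838, edgeR).

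Among the effector kinases, Mapkapk2 had the same outlying library. Mapkapk2, the gene of MK2 (chromosome 1, 131053700 to 131097871, minus strand), held 218.9, 137.5 and 236.2 CPM in Nrp1 high, against 40.95, 210.3 and 142.9 CPM in Nrp1 low. Nrp1 low replicate 1 was lowest, and its removal moved the log2 difference to 0.16, against 0.59 ± 0.51 (SE; adjusted p = 0.585, edgeR) with all libraries. Mapkapk3, the gene of MK3 (chromosome 9, 107254927 to 107289877, minus strand), held 151.9, 213.3 and 166.6 CPM in Nrp1 high, against 248.6, 193.9 and 209.2 CPM in Nrp1 low. The groups of Mapkapk3 overlapped through Nrp1 high replicate 2 alone, and the log2 difference was -0.29 ± 0.21 (SE; adjusted p = 0.520, edgeR; 95% interval -0.76 to 0.18). The ratio of Mapkapk3 to Mapkapk2 CPM was 0.694, 1.55 and 0.705 in Nrp1 high, against 6.07, 0.922 and 1.46 in Nrp1 low.

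Mapkapk5, the gene of the kinase PRAK (chromosome 5, 121525051 to 121545892, minus strand), held 31.8, 10.2 and 18.2 CPM in Nrp1 high, against 10.2, 26.1 and 23.3 CPM in Nrp1 low. The groups overlapped almost wholly. Its log2 difference was 0.02 ± 0.48 (SE; adjusted p = 0.989, edgeR), with a wide 95% interval of -1.09 to 1.13. Its sign turned without Nrp1 high replicate 1, without Nrp1 low replicate 1 and with the replicate number as a block.

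**Figure D2:**
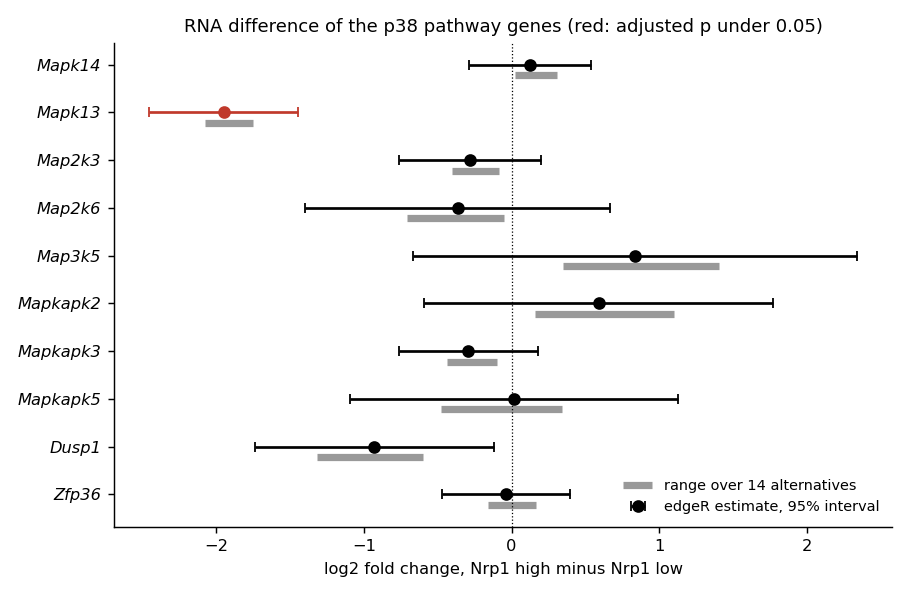
Log2 fold change in RNA, Nrp1 high minus Nrp1 low, for the 10 genes: points are edgeR estimates with 95% intervals, and grey bars span the values over 14 other settings, 6 of which leave out 1 library. Mapk13 at -1.95 is the only gene called (red), and the intervals of 8 genes include 0.

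Dusp1, which encodes the phosphatase of p38 and JNK, had lower values in Nrp1 high but was not called. The gene (chromosome 17, 26505591 to 26508472, minus strand) held 43.3, 85.8 and 44.2 CPM in Nrp1 high, against 154.8, 86.8 and 88.1 CPM in Nrp1 low. The groups did not overlap, but Nrp1 high replicate 2 lay just under Nrp1 low replicate 2. The log2 difference was -0.93 ± 0.35 (SE), with an unadjusted p of 0.029, which 11.2% of all tested genes passed, and an adjusted p of 0.421 (edgeR). It was -0.60 without Nrp1 low replicate 1 and -1.32 without Nrp1 high replicate 2 (adjusted p = 0.645 and 0.235, edgeR).

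Zfp36 (chromosome 7, 28376784 to 28379228, minus strand) was close to level, at 252.7, 274.8 and 256.0 CPM in Nrp1 high, against 284.2, 221.9 and 297.4 CPM in Nrp1 low. The 3 Nrp1 high values lay within the range of the Nrp1 low values. Its log2 difference was -0.04 ± 0.19 (SE; adjusted p = 0.933, edgeR; 95% interval -0.47 to 0.40), and the sign turned with library totals as the scale, without Nrp1 low replicate 1 and without Nrp1 low replicate 3. The ratio of Dusp1 to Zfp36 CPM was 0.171, 0.312 and 0.173 in Nrp1 high, against 0.545, 0.391 and 0.296 in Nrp1 low.

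The genes closest in pattern to Dusp1 were Tmem35b (0.07), Cd300lb (0.11), Prr13 (0.11), Zfp51 (0.11) and Atp6ap2 (0.12). Their log2 differences lay between -0.98 and -0.76 and none was called, which again largely follows from the choice by likeness. Those closest to Zfp36 were the alpha tubulin genes Tuba1b (0.03) and Tuba1a (0.04), then Ippk (0.05), Mrps35 (0.05) and Gatd3a (0.05). Immediate early genes, which cell handling can induce and among which Dusp1 and Zfp36 are often counted, summed to 1261 to 1892 CPM in Nrp1 high, against 1660 to 2493 CPM in Nrp1 low. Of 16 tested, edgeR called 0, and 4 (25.0%) had an unadjusted p under 0.05, against 11.2% of all tested genes. Groups did not overlap in 18.8% of the 16, against 20.3% of all tested genes. Among the 4 were Nr4a1, a nuclear receptor (log2 difference -0.89, adjusted p = 0.183, edgeR), Ier2 (-0.78) and Junb, an AP-1 subunit (-0.84). Of the 16, 6 lay above 0 and 10 below. Of the genes without overlap, Nr4a1 and Ier5 (-0.41) lay below in Nrp1 high and Fosl2 (1.06) above. Nr4a1 was called by DESeq2 (adjusted p = 0.0418). Whether handling contributed to the Dusp1 difference was not tested.

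Open chromatin was compared in the authors' deposited table, which holds for each region a log2 fold with its p-value and FDR, and no value per library. The fold is read as Nrp1 high over Nrp1 low from the name of the comparison, and distances are those of the table, from its own annotated transcript starts. Of the 47 regions of these genes, 5 passed an FDR of 0.05 in the authors' deposited table, or 10.6%, against 7.55% of all regions. Of the 5, 1 was higher and 4 were lower in Nrp1 high, as were 2.56% and 4.99% of all regions. At an FDR of 0.01, 1 of the 47 passed in the authors' deposited table, against 2.45% of all regions, and at 0.1, 6 passed, against 13.2%. A p-value under 0.05 was listed for 11 of the 47 regions in the authors' deposited table, against 23.7% of all regions. The median log2 fold was -0.11 for the 47 regions and -0.09 for all regions, and 28 of the 47 lay below 0. Of 18 promoter regions (within 3000 bases of a transcript start) 1 passed, against 5.84% of all promoter regions.

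**Figure D3:**
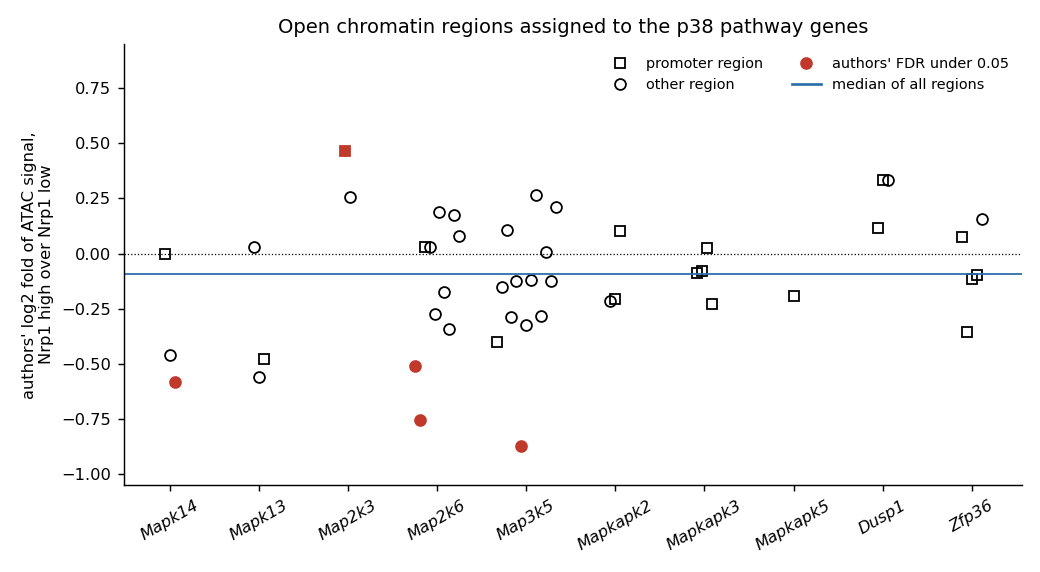
The authors' log2 fold of ATAC signal, Nrp1 high over Nrp1 low, for the 47 regions assigned to the 10 genes: squares are promoter regions, circles other regions, red an FDR under 0.05, and the blue line the median of all regions (-0.09). A promoter region of Map2k3 is the 1 called higher, and 4 regions away from promoters, 2 of Map2k6 and 1 each of Mapk14 and Map3k5, are called lower.

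The promoter region called higher covered the start of Map2k3 (chromosome 11, 60931818 to 60932217), with a log2 fold of 0.47 and an FDR of 0.0174 in the authors' deposited table. A region in the first intron of Map2k3, 3376 bases past the start, had 0.25 (FDR 0.172). Both regions lay above 0, while the RNA log2 difference of Map2k3 was -0.28 and not called.

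The 2 distal regions of Map2k6 were lower in the authors' deposited table. The region 18980 bases before the start (chromosome 11, 110379743 to 110380142) had a log2 fold of -0.76 (FDR 0.00737), and that 25942 bases before it (110372781 to 110373180) had -0.51 (FDR 0.0237). The promoter region of Map2k6 had 0.03 (FDR 0.935), and the other 7 regions, all intronic, ran from -0.34 to 0.19.

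Map3k5 had the most regions, 13, of which 1 was called. It lay in intron 2 (chromosome 10, 20003082 to 20003481) with a log2 fold of -0.87 and an FDR of 0.0211 in the authors' deposited table. The promoter region of Map3k5 had -0.40 (FDR 0.0676), and 9 of the 13 regions lay below 0. The RNA log2 difference of Map3k5 was 0.84 and not called.

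Mapk14 and Mapk13 lie side by side on the plus strand of chromosome 17, with 20880 bases between them. In the authors' deposited table the region called for Mapk14 lay in this gap (28750550 to 28750949), 8931 bases past the start of an annotated Mapk14 transcript, with a log2 fold of -0.58 and an FDR of 0.0478. Closer to Mapk13, a region 7040 bases before its start (28761858 to 28762257) had -0.56 (FDR 0.145) and one 12456 bases before it had 0.03 (FDR 0.955). The promoter region of Mapk13 (28769942 to 28770341), 523 bases past the start, had -0.48 (FDR 0.141). That of Mapk14 had a log2 fold of -0.003 (FDR 0.992). Within the body of Mapk14, a region in intron 8 had -0.46 (FDR 0.332), and one in intron 1 that the table assigns to the pseudogene Gm4356 had -0.45 (FDR 0.0991). The 3 regions assigned to Mapk13, the gene called in RNA, did not pass the FDR threshold.

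**Figure D4:**
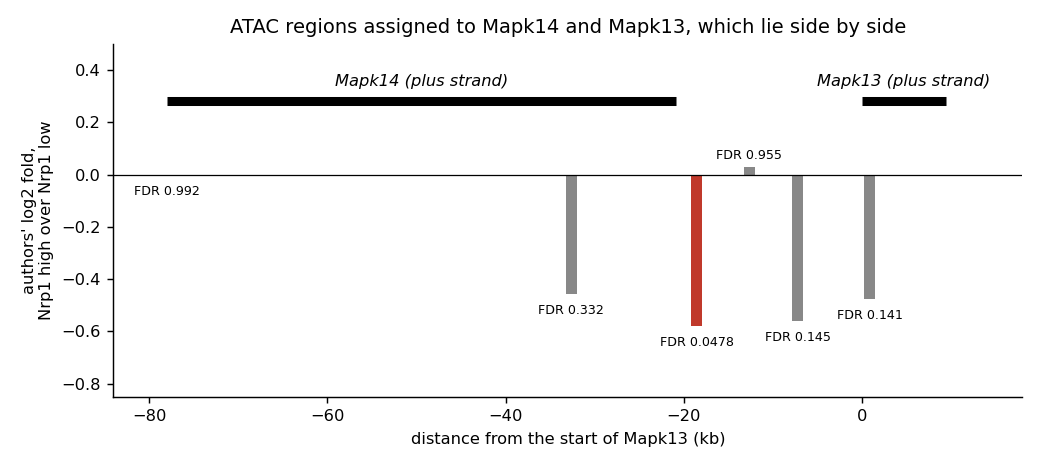
The authors' log2 fold of ATAC signal, Nrp1 high over Nrp1 low, for the regions assigned to Mapk14 and Mapk13, each as a bar with its FDR, by distance of the region's centre from the start of Mapk13 in kb; black lines are the genes and red is an FDR under 0.05. The region called, at -0.58, lies in the gap between the genes, and the regions near the start of Mapk13, at -0.56 and -0.48, do not pass.

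The remaining genes had no region past an FDR of 0.05 in the authors' deposited table. Dusp1 had 3 regions, all above 0, of which the one at its start had 0.12 (FDR 0.644), one 880 bases before it 0.33 (FDR 0.248) and one 6097 bases before it 0.34 (FDR 0.407). The last was annotated as intron 3 of 5 of a transcript and lay outside the RefSeq span of Dusp1. The RNA log2 difference of Dusp1 was -0.93, also not called. Zfp36 had 5 regions, and the lowest FDR was 0.101 for the region 742 bases before a start (log2 fold -0.35). The region 14 bases before the start had 0.08 (FDR 0.796). The start regions of Mapkapk3 and Mapkapk5 had -0.23 and -0.19 (FDR 0.179 and 0.375), and the region of Mapkapk2 closest to a start, 554 bases past it, had 0.10 (FDR 0.754).

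Promoter sequences are shown for 4 genes: Mapk13, the gene called in RNA, Map2k3, the gene with the promoter region called in ATAC, and Dusp1 and Zfp36, as the feedback phosphatase and the effector. They run from 250 bases before to 50 after the start (RefSeq, GRCm38.p6), 5′ to 3′ on the gene's strand, and RefSeq lists 14 such promoters for the 10 genes. Capitals mark matches on either strand to motifs of factors that act in myeloid cells or downstream of MAP kinases. The motifs searched were the CRE bound by CREB and ATF factors (TGACGTCA, in 1.79% of 32851 promoters), the AP-1 site (TGANTCA, 7.81%), a PU.1 site (GAGGAAGT, 3.20%), a C/EBP site (TTGCNNAA, 10.8%), a GC box of Kruppel-like factors (GGGTGTGG, 3.56%), TATAAA (13.6%) and the CArG box of serum response factor (1.63%). The CRE holds the shorter core TGACG, which 20.8% of promoters contain and which is not capitalised alone.
Mapk13, chr17:28769067-28769366, plus strand: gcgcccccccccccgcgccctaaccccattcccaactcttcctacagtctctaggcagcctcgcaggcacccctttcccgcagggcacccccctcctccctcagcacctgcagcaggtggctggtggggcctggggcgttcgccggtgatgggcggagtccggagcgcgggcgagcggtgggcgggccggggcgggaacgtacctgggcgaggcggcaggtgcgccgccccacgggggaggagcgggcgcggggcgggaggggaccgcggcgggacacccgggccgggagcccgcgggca
Map2k3, chr11:60931804-60932103, plus strand: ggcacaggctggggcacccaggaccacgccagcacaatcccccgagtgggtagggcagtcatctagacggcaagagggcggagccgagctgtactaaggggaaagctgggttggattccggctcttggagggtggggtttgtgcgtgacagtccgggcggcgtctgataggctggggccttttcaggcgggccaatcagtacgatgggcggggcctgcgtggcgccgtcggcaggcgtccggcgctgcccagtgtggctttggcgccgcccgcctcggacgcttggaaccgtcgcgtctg
Dusp1, chr17:26508423-26508722, minus strand: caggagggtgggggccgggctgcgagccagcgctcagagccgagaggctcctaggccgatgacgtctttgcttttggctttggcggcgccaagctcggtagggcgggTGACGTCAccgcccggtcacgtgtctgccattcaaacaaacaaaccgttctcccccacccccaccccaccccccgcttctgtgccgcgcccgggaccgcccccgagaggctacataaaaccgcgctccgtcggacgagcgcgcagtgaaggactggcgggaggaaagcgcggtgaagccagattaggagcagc
Zfp36, chr7:28379179-28379478, minus strand: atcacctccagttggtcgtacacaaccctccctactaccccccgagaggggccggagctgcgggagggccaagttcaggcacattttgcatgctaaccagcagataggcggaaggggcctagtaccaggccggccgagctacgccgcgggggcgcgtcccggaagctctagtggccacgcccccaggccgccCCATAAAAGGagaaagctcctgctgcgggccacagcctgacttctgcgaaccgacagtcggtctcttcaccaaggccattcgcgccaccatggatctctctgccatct

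The Dusp1 promoter held a full CRE, 143 bases before the start, and a separate TGACG core 191 bases before it. The Zfp36 promoter held a CArG box 58 bases before the start. Neither the Mapk13 nor the Map2k3 promoter matched any of these motifs in full. The Mapk13 promoter was 78.0% G and C, against a median of 52.7% over all promoters, and no ATAC region overlapped it, whereas 286 of the 300 bases of the Map2k3 promoter lay in the region called higher. Among the other promoters a C/EBP site was found at a second start of Mapk14, an AP-1 site at Map2k6, a TATAAA match at another Map2k6 start and a PU.1 site at Mapkapk2. Also among them, the Map3k5 promoter was 79.7% G and C and, like that of Mapk13, overlapped no ATAC region.

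The wider pathway was read from lists of upstream kinases and adaptors, downstream kinases and transcription factors, MAP kinase phosphatases, AU-rich element binding proteins, tristetraprolin target mRNAs and Mapk11. Of 70 tested genes 0 were called by edgeR, and 12 had an unadjusted p under 0.05, or 17.1%, against 11.2% of all tested genes. DESeq2 called 1 of the wider genes and limma-voom 0, against 1.54% of all genes with a DESeq2 p-value and 0.772% of those limma-voom tested. Of the 70, 45 lay above 0 and 25 below, with a median log2 difference of 0.22, against 0.01 for all tested genes. Groups did not overlap in 17 of the 70, or 24.3%, against 20.3% of all tested genes.

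Upstream of p38, 14 of 22 genes lay above 0 (median 0.48, and 0.21 without Nrp1 low replicate 1). Map3k6, the gene of the ASK1 relative ASK2, held 22.2, 15.9 and 18.9 CPM in Nrp1 high, against 8.90, 9.73 and 11.2 CPM in Nrp1 low (log2 difference 0.94 ± 0.26 SE, adjusted p = 0.275, edgeR). The stress sensors Gadd45b and Gadd45a, which bind the p38 activator MEKK4, had -0.88 and -0.81 (adjusted p = 0.356 and 0.376, edgeR). In both Gadd45 genes all Nrp1 high libraries lay below all Nrp1 low libraries, and in Map3k6 above them.

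Downstream of p38, 12 of 15 tested genes lay above 0 (median 0.38, and 0.20 without Nrp1 low replicate 1). Mef2c, a transcription factor phosphorylated by p38, held 73.7, 61.6 and 53.7 CPM in Nrp1 high, against 26.8, 41.2 and 40.4 CPM in Nrp1 low (log2 difference 0.80 ± 0.25 SE, adjusted p = 0.324, edgeR). Rps6ka5 and Rps6ka4, the genes of the nuclear kinases MSK1 and MSK2, had 0.82 and 0.38 (adjusted p = 0.447 and 0.454, edgeR).

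The phosphatases other than Dusp1 had a median of -0.11 over 12 genes, which was 0.08 with library totals as the scale. Of the 12, 5 lay above 0 and 7 below. Ptpn7, a tyrosine phosphatase of ERK and p38 in blood cells, held 86.2, 72.5 and 83.95 CPM in Nrp1 high, against 139.1, 114.3 and 118.9 CPM in Nrp1 low (log2 difference -0.62 ± 0.18 SE, adjusted p = 0.301, edgeR). Dusp6, an ERK phosphatase, had -0.60 (adjusted p = 0.435, edgeR), and its groups, like those of Ptpn7, did not overlap. Nor did those of Ptprr (-2.01, adjusted p = 0.465, edgeR), at 0 to 42 counts per Nrp1 high library. Groups did not overlap in 25.0% of the 12, against 20.3% of all tested genes. Ppp2ca, the catalytic subunit of PP2A, had -0.56 (adjusted p = 0.445, edgeR) with groups that overlapped.

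All 7 tested genes of other AU-rich element binding proteins lay above 0, under each of the 4 scalings tried (6 of 7 without Nrp1 high replicate 2 or without Nrp1 low replicate 3), with a median of 0.61 and 0 called (0 with an unadjusted p under 0.05). Khsrp, a decay-promoting binding protein, held 45.3, 33.3 and 49.5 CPM in Nrp1 high, against 3.47, 25.7 and 19.7 CPM in Nrp1 low (log2 difference 1.39 ± 0.61 SE, adjusted p = 0.445, edgeR). Hnrnpd, which encodes AUF1, had 0.61 and Tial1 1.08 (adjusted p = 0.446 and 0.447, edgeR). Nrp1 low replicate 1 was the lowest library in all 3, and without it the median of the 7 was 0.40.

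Among mRNAs known as tristetraprolin targets, 6 of 13 tested lay above 0 and 7 below, with 3 above 0 without Nrp1 high replicate 1 and 3 without Nrp1 low replicate 2. Tnf, the cytokine whose mRNA was the first known target, held 5.95, 2.39 and 4.89 CPM in Nrp1 high, against 11.2, 7.85 and 12.8 CPM in Nrp1 low (log2 difference -1.27 ± 0.41 SE, adjusted p = 0.356, edgeR). Il1b held 1.12, 2.39 and 1.17 CPM in Nrp1 high, against 4.07, 4.01 and 5.08 CPM in Nrp1 low (-1.49 ± 0.46 SE, adjusted p = 0.321, edgeR). Il1a held 0.45, 0.12 and 0.36 CPM in Nrp1 high, against 2.38, 3.26 and 2.00 CPM in Nrp1 low (-3.03 ± 0.69 SE, adjusted p = 0.157, edgeR). Il1a was the gene that DESeq2 called (adjusted p = 0.00383), at 4 to 14 counts per Nrp1 high library. Groups did not overlap in 5 of the 13, against 20.3% of all tested genes. Nrp1 high lay below in Tnf, Il1b, Il1a and Ier3, an early response gene (log2 difference -0.92, adjusted p = 0.397, edgeR). It lay above in Ptgs2, the gene of cyclooxygenase-2, at 36 to 55 counts in Nrp1 high libraries, against 0 to 11 in Nrp1 low libraries (adjusted p = 0.445, edgeR).

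The ERK and JNK kinases, the nearest relatives of the pathway, had a median log2 difference of 0.09 over 13 genes, which was -0.01 without Nrp1 low replicate 1 and 0.28 with library totals as the scale. Of the 13, 0 were called by edgeR and 3 (23.1%) had an unadjusted p under 0.05, against 11.2% of all tested genes. These were Map2k7, the gene of the JNK kinase MKK7, at 1.35, Mapk8, the gene of JNK1, at 0.98, and Araf at -0.64 (adjusted p = 0.421, 0.385 and 0.434, edgeR). The Map2k7 difference was 0.94 without Nrp1 low replicate 1. Groups did not overlap in 5 of the 13 kinases (38.5%), against 20.3% of all tested genes. Of their 21 ATAC regions 0 passed an FDR of 0.05 in the authors' deposited table, against 7.55% of all regions, and 3 of the 21 had a p-value under 0.05, against 23.7%. Whether the p38 genes differ from these kinases was not tested.

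**Figure D5:**
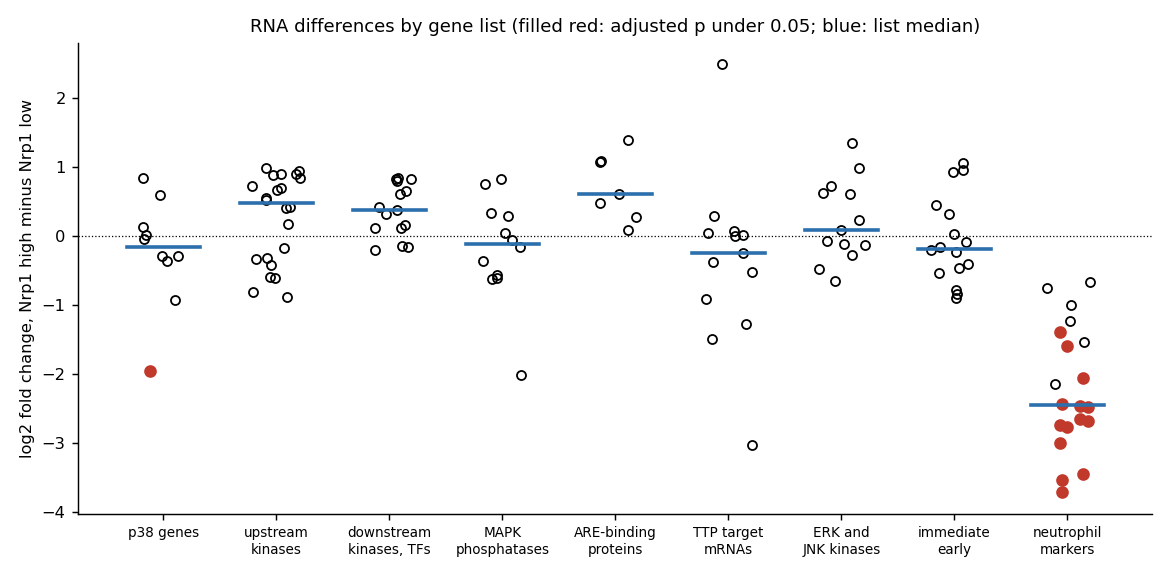
Log2 fold change in RNA, Nrp1 high minus Nrp1 low, of each tested gene by list, with called genes filled in red and the list median as a blue line; horizontal positions within a list are spread for visibility. Mapk13 at -1.95 is the called point among the p38 genes and the neutrophil markers have a median of -2.44, while none of the other lists shown holds a called gene.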

How the data were processed

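SMART-Seq v4 RNA libraries were read as pairs of 150 bases, per the labels' protocols. The authors deposited estimated counts per gene, all whole numbers, on GRCm38, and HISAT2 and StringTie are named in the submitters' processing notes. The value 4 was 1.22 to 1.53 times as frequent as the mean of 3 and 5, so counting error may exceed what the counts state. Strand was not given in the sources used here.

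For ATAC-seq the authors deposited, per region, a log2 fold with its p-value and FDR. The submitters' processing notes name BWA, MACS2, DiffBind, edgeR, DESeq2 and ChIPseeker. The labels name a DESeq2 table, while the deposited one is named for edgeR. Which of these packages gave the deposited values is not settled here. Which libraries entered and whether reads were shifted was not given in the sources used here, and the depth is unknown.

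Genes were filtered with filterByExpr (15541 kept), scaled by TMM and tested across all genes with edgeR 4.0.16 (robust quasi-likelihood, group as the term, R 4.3.3), after a check on simulated data. DESeq2 1.42.0, limma 3.58.1 (voom), other scalings and filters, the replicate block and leaving out each library were alternatives. The genes named are the 10 members, the called genes and the 3 of lowest p in each wider list, the ATAC regions called, nearest a start or of lowest FDR, and the 5 genes of most similar pattern for 3 members. Further genes and regions, such as Csf1r, Ly6c2, Cd14 and Ptgs2, were named after their values were seen. The members, lists and tests were chosen with earlier results of these data known.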

Additional observations from a re-analysis of the deposited data

How the results depend on the processing

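The number of genes called by edgeR, 106 of 15541, was 393 with DESeq2, 0 with the replicate block (943 at an unadjusted p under 0.05) and 0 to 125 when 1 library was left out, with 0 without Nrp1 high replicate 3. Of the calls 20.6% were higher in Nrp1 high by DESeq2 and 0.943% by edgeR. Of the 10 p38 genes 1 was called, Mapk13, against 0 with the replicate block (log2 difference -1.96, adjusted p = 0.123) and 0 or 1 when 1 library was left out. Mapk13 stayed below 0 in all 14 alternatives, from -2.07 to -1.75. In the wider lists DESeq2 called 1 gene and edgeR 0. Regions called in the authors' deposited table were 1000 at an FDR of 0.01 and 5368 at 0.1, against 3082 at 0.05, and for the p38 genes 1 at 0.01 and 6 at 0.1, against 5.

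The log2 difference of Mapkapk5, 0.02, turned to -0.049 with the replicate block, -0.48 without Nrp1 high replicate 1 and -0.30 without Nrp1 low replicate 1, and ran from -0.48 to 0.34 when 1 library was left out. That of Zfp36, -0.04, turned to 0.16 with library totals, 0.0074 without Nrp1 low replicate 1 and 0.043 without Nrp1 low replicate 3, and ran from -0.16 to 0.043 when 1 library was left out. The other 7 uncalled p38 genes kept their sign and stayed uncalled in all 14. Library totals moved the log2 differences of all genes by a median of 0.19. Same-numbered libraries deviated from their group means with correlations of -0.342, -0.394 and 0.0321, and no library correlated best with its own number. With deviations from means of only 3 libraries, this check cannot exclude that the replicate numbers pair the libraries. Each group has 3 RNA libraries, and the ATAC table has no value per library.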
